A study of Mus musculus with 15 samples.

Results

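Gene expression in ALDH+ islet cells was compared between mice in which the cells had been labelled by Pdx-cre and mice in which they had been labelled by Rip-cre. All ALDH+ libraries were taken, which gave 3 Pdx-cre and 4 Rip-cre libraries, 7 of the 15 libraries in the series. The comparison asks whether the same sort yields the same cells from both lineages. Aldefluor is a substrate that cells with aldehyde dehydrogenase (ALDH) activity turn into a trapped green fluorophore, and the study used it to isolate islet cells with ALDH1A3, an isoform that makes retinoic acid from retinal. Rip-cre is driven by the rat insulin promoter and recombines in beta cells. Pdx1 is expressed first in the pancreatic precursors that give rise to acinar, duct and endocrine cells and later in beta cells, so Pdx-cre can label any of these lineages.

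Cells were sorted from isolated islets as RFP+ (red fluorescent protein switched on by cre) and aldefluor-positive. The controls are labelled FoxO Het (Foxo het), although the study's text describes controls without a deletion. The knockouts lacked Foxo1, Foxo3 and Foxo4 in the cells where cre acts (Foxo KO). The Pdx-cre libraries were 1 Foxo het (replicate 2) and 2 Foxo KO (replicates 4 and 5), and the Rip-cre libraries were 1 Foxo het (replicate 1) and 3 Foxo KO (replicates 1 to 3). All mice had a mixed 129J and C57BL/6 background. Rip-cre mice were 6 months old, and islets of several animals were collected for each genotype. The age of the Pdx-cre mice, and whether replicates came from separate pools, are not given in the sources used here, so p-values measure the spread between these libraries, which may be technical. No group lacked cre, and cre line cannot be told apart from any other difference between the colonies.

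Values are FPKM (fragments per kilobase of transcript, scaled to the number of fragments mapped), which allow levels to be compared between genes. The 7 libraries held 8200298 to 9730667 fragments. Pearson correlations of log2 values across genes were 0.898 to 0.944 between Rip-cre libraries, 0.894 to 0.916 between Pdx-cre libraries and 0.84 to 0.917 across the lines.

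2 of the 3 Pdx-cre libraries stood apart in sex-linked RNA. Xist, the RNA that silences an X chromosome in female cells, was at 223 FPKM in Pdx-cre Foxo het replicate 2 and 214 in Pdx-cre Foxo KO replicate 5, and at 0.0558 to 0.293 in the other 5 libraries. Ddx3y, on the Y chromosome, was at 0.0234 and 0.0213 FPKM in the 2 Xist-high libraries, at 7.96 in Pdx-cre Foxo KO replicate 4 and at 15.8 to 17.5 in the Rip-cre libraries. Other Y-linked genes lay closer to Rip-cre levels in Pdx-cre Foxo KO replicate 4. Eif2s3y was at 51.3 (Rip-cre 37.6 to 72.9), Uty at 8.46 (8.26 to 13.9) and Kdm5d at 6.87 (7.22 to 12.2). The 2 Xist-high libraries also held RNA of acinar cells, the enzyme-secreting cells of the exocrine pancreas. Ctrb1 (chymotrypsinogen B) was at 1223 and 601 FPKM in them, at 0.285 in Pdx-cre Foxo KO replicate 4 and at 0 to 1.58 in the Rip-cre libraries. The summed level of 35 acinar markers was 1863 and 902 FPKM in the Xist-high libraries against 46.8 in the third Pdx-cre library and 36.2 to 45.2 in the Rip-cre libraries. Of those 35 markers, 21 were at 0 in all 5 Xist-low libraries. No acinar marker was called between the lines (0 of 25 tested, Ctrb1 adjusted p = 0.19, limma). Of all genes tested, 0.432% were called higher and 0.229% lower. The median of the acinar list was a log2 fold change of 2.29. Sex is not in the labels. The part of sex-linked or acinar RNA in the differences between lines was not tested, and main results are also given without the 2 Xist-high libraries.

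**Figure D1:**
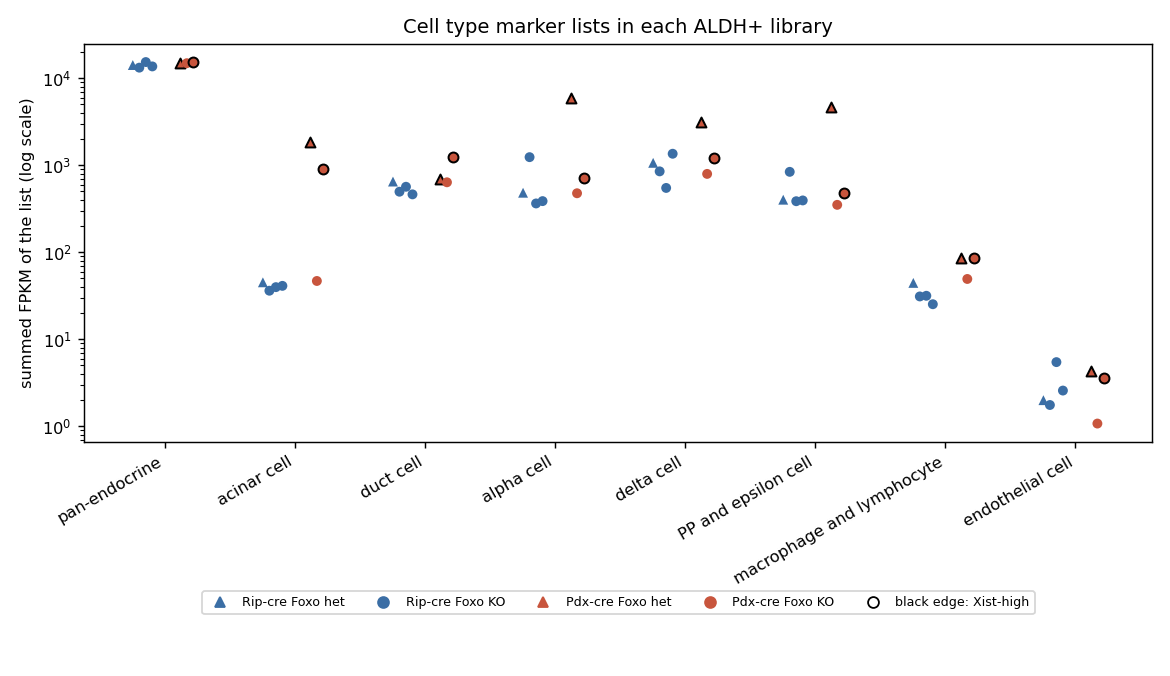
Summed FPKM of marker lists for islet and other cell types in each ALDH+ library, on a log axis. Triangles are Foxo het, circles Foxo KO, blue Rip-cre, red Pdx-cre, and a black edge marks the 2 Xist-high libraries. Pan-endocrine genes lie at 13230 to 15340 FPKM in all 7 libraries, while acinar markers separate the 2 Xist-high libraries (902 and 1863) from the other 5 (36.2 to 46.8).

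The targeted genes were checked first. Foxo1 was at 19.6 FPKM in the Rip-cre Foxo het library and 2.47, 1.15 and 3.44 in the Rip-cre Foxo KO libraries, and at 12.04 in the Pdx-cre Foxo het library and 0.523 and 1.98 in the Pdx-cre Foxo KO libraries. Foxo1 was thus lower in each knockout library than in either control, with a cre difference that did not pass the test (log2 fold change -0.60 ± 0.37 SE, adjusted p = 0.483, limma). Foxo3 RNA was at 14.7 and 19.3 FPKM in the controls and 11.1 to 30.6 in the knockouts, which overlap. Foxo4 was at or under 0.428 FPKM everywhere and was not tested. Foxo6, a family member that was not deleted, was at 4.79 to 8.13 FPKM in Rip-cre and 1.03 to 2.37 in Pdx-cre libraries (log2 fold change -1.63 ± 0.32 SE, adjusted p = 0.0673, limma).

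The gene that names the sorted population did not separate the lines. Aldh1a3 (mm9 chr7:73535779-73572363) was at 28.2 FPKM in the Rip-cre Foxo het library and 22.1, 35.2 and 50.7 in the Rip-cre Foxo KO libraries. In Pdx-cre cells it was at 24.9 in the Foxo het library and 33.5 and 76.9 in the Foxo KO libraries. The ranges overlap. The log2 fold change, Pdx-cre over Rip-cre, was 0.37 ± 0.36 SE (n = 3 and 4, 95% interval -0.43 to 1.17, adjusted p = 0.667, limma). Without the 2 Xist-high libraries the estimate was -0.03. None of the 11 Aldh genes tested passed the threshold, and their median log2 fold change was -0.17 against 0 over all genes. Over all genes tested, 0.432% were called higher and 0.229% lower, so a list of this size would seldom hold a call. Aldh1a1 was at or under 0.146 FPKM in every ALDH+ library. In ALDH- cells, Aldh1a3 was at 0.49 to 4.09 FPKM in Rip-cre and 0.506 to 3.87 in Pdx-cre libraries, all below the lowest value in ALDH+ cells.

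Across 11343 genes tested, 49 were higher in Pdx-cre ALDH+ cells (0.432% of genes tested) and 26 were lower (0.229%) at an adjusted p under 0.05 (limma, with Foxo genotype as covariate), and 1762 had an unadjusted p under 0.05. The median log2 fold change of the higher genes was 1.89 (3.71-fold) and that of the lower genes was -1.41. Counting only order, 795 genes (7.01%) had all Pdx-cre values above all Rip-cre values and 787 (6.94%) had all of them below. The number of calls depends on single libraries. It was 4 without Pdx-cre Foxo KO replicate 5 and 167 without Pdx-cre Foxo KO replicate 4. Without Rip-cre Foxo KO replicates 1 and 2 it was 16 and 19. Without Rip-cre Foxo het replicate 1 it was 8, and without Pdx-cre Foxo het replicate 2 it was 11. With genotype in the fit, leaving out either Foxo het library leaves the other to the genotype term. Both of these fits therefore take the cre difference from the same Foxo KO libraries and are not separate checks. The direction of all 75 called genes held in each fit that left out 1 library. These genes were picked from the same libraries, so a kept direction was likely beforehand. It is no independent check, here or without the 2 Xist-high libraries. Without the 2 Xist-high libraries, 1 Pdx-cre library stands against 4, all 74 called genes that could be tested kept their direction, and none of them passed the threshold.

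The higher genes included enzymes of glycolysis, the pathway that splits glucose into pyruvate and lactate. Mature beta cells normally keep lactate dehydrogenase A (Ldha) very low, so that pyruvate goes to the mitochondria, and Ldha is counted among the genes disallowed in beta cells. Ldha (mm9 chr7:54101174-54110997) was at 0.397 FPKM in the Rip-cre Foxo het library and 0.0687, 1.01 and 1.63 in the Rip-cre Foxo KO libraries, which is 0.6 to 19.4 fragments. In Pdx-cre cells it was at 83.5 in the Foxo het library and 35.0 and 123 in the Foxo KO libraries, or 510.2 to 1837.2 fragments. The groups do not overlap, and the lowest Pdx-cre value is that of the Xist-low library. The log2 fold change of Ldha was 5.44 ± 0.47 SE (43.6-fold, adjusted p = 0.0059, limma). It passed the threshold in each fit that left out 1 library, and it was 4.34 without the 2 Xist-high libraries.

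Of 18 glycolytic enzymes tested from a list of 23, 9 were higher in Pdx-cre ALDH+ cells and none was lower, with a median log2 fold change of 1.38. The list was drawn up after these values had been seen, so its count is a description. Following the order of the pathway, Gpi1 (glucose-6-phosphate isomerase) was 2.53-fold higher (log2 1.34 ± 0.18 SE), and the phosphofructokinase isoforms Pfkl and Pfkp were 3.12-fold and 4.63-fold higher. Pfkp was at 10.2, 5.47, 7.49 and 6.41 FPKM in Rip-cre libraries and at 48.2, 27.0 and 41.1 in Pdx-cre libraries. Aldoa (aldolase A) rose 2.42-fold, Tpi1 (triosephosphate isomerase) 4.26-fold, Pgk1 (phosphoglycerate kinase, which yields the first ATP) 4.44-fold, Pgam1 (phosphoglycerate mutase) 3.37-fold and Eno2 (an enolase) 2.68-fold. Pgk1 was at 46.8, 46.3, 69.4 and 41.9 FPKM in Rip-cre libraries and at 264, 190 and 223 in Pdx-cre libraries (log2 2.15 ± 0.21 SE, adjusted p = 0.00656, limma). Values of all 9 enzymes lay higher in each Pdx-cre library than in any Rip-cre library. As these 9 were picked by the test on the same libraries, that order was likely. Over all genes tested, 7.01% had it. Gapdh (log2 1.21, adjusted p = 0.0586), Aldoc (1.58, 0.0564) and Pkm2 (0.88, 0.0822), the pyruvate kinase gene, did not pass the test (limma). Beyond the list, Pfkfb3, which makes the phosphofructokinase activator fructose-2,6-bisphosphate, was at 1.07 to 1.45 FPKM in Rip-cre and 10.2 to 15.4 in Pdx-cre libraries (6.18-fold, adjusted p = 0.00827, limma), and Gys1 (glycogen synthase) was 2.99-fold higher.

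**Figure D2:**
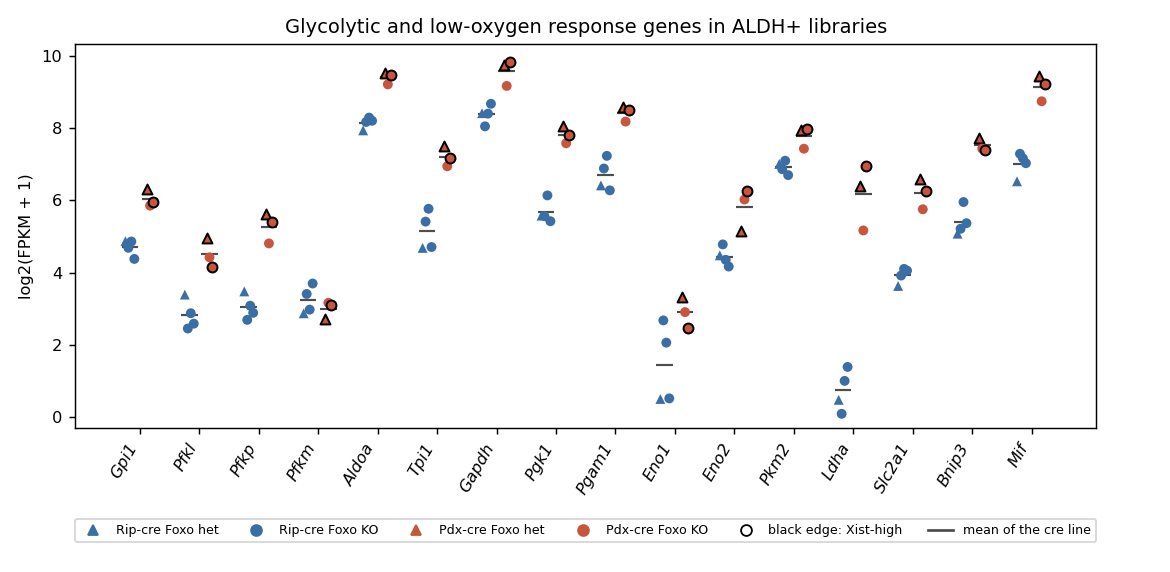
Level of 16 glycolytic and low-oxygen response genes in each ALDH+ library, as log2(FPKM + 1). Blue marks Rip-cre, red Pdx-cre, triangles Foxo het, circles Foxo KO, a black edge the Xist-high libraries, and a short line the mean of the cre line. Ldha lies at 0.0687 to 1.63 FPKM in Rip-cre and 35.0 to 123 in Pdx-cre libraries, and Pfkm overlaps between the lines.

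Many of these enzymes, and other genes in the higher group, are known targets of the hypoxia-inducible factors, which switch cells to glycolysis when oxygen is low. Of 25 such response genes tested from a list of 31, also drawn up after the values were seen, 10 were higher and none was lower, with a median log2 fold change of 1.54. The transporter Slc2a1 (GLUT1), which carries glucose into most cell types, was at 11.4, 14.1, 16.2 and 15.7 FPKM in Rip-cre libraries and at 95, 53.0 and 75.4 in Pdx-cre libraries (4.87-fold, log2 2.28 ± 0.24 SE, adjusted p = 0.00827, limma). Bnip3, a mitophagy receptor, was at 32.8 to 61.0 FPKM against 168 to 212, and the cytokine Mif was at 91.2 to 155 against 427 to 696. Other called members included Stc1 (the secreted hormone stanniocalcin 1), P4ha1 (a collagen prolyl hydroxylase subunit), Fam162a, Ero1l (an oxidase of protein folding in the endoplasmic reticulum), Ak4 (a mitochondrial adenylate kinase) and Pfkfb3. Stc1 was at 0 FPKM in 3 Rip-cre libraries and 0.176 in Rip-cre Foxo KO replicate 2, and at 10.9, 4.88 and 14.7 in Pdx-cre libraries.

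Some members of that list did not follow. Vegfa, the endothelial growth factor, was at 175 to 205 FPKM in Rip-cre and 138 to 170 in Pdx-cre libraries (log2 -0.35 ± 0.16 SE, adjusted p = 0.323, limma). Pdk1 (log2 1.54, adjusted p = 0.0569), P4ha2 (1.37, 0.0635), Egln1 (1.02, 0.0722) and Higd1a (2.19, 0.0778) did not pass. Of 5 pathway regulators tested none passed. Hif1a itself was at 20.1 to 22.5 FPKM in Rip-cre and 29.6 to 62.3 in Pdx-cre libraries (log2 0.99 ± 0.22 SE, adjusted p = 0.0918, limma). The part of oxygen or of hypoxia-inducible factors in the differences between lines was not tested.

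The letters ACGTG form the core that hypoxia-inducible factors bind, and they also occur in the sites of other factors. They were searched on both strands in the 250 bases before annotated transcription starts (RefSeq, GRCm38.p6, with matches to CACGTG counting once on each strand). Of 38 higher genes with a window, 14 (36.8%) held a match, against 1 of 21 lower genes (4.76%) and 26.1% of the 8087 tested genes with a window. The count is a description of letters, not of binding, and the shares were not tested against each other. The windows of 2 higher genes and of Slc2a2, the lower transporter described next, are printed with matches in capitals. They were picked by hand as examples, and most higher genes with a window held no match. The Ldha window (5 matches, build GRCm38.p6, chr7:46845554-46845803, plus strand) is the one of its 2 annotated starts that held any, and the Slc2a1 window (1 match, chr4:119108495-119108744, plus strand) and the Slc2a2 window (no match, chr3:28697653-28697902, plus strand) are the only ones of their genes.
Ldha: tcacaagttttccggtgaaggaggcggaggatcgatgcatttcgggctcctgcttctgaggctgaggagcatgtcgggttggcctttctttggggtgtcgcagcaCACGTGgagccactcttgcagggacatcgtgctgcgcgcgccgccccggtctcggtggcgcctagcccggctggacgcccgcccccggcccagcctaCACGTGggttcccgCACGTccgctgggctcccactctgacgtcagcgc
Slc2a1: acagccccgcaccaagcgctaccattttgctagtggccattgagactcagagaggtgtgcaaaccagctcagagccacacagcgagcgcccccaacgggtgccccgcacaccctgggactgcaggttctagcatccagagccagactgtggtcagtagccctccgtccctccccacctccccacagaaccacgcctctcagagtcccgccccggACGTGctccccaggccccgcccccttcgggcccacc
Slc2a2: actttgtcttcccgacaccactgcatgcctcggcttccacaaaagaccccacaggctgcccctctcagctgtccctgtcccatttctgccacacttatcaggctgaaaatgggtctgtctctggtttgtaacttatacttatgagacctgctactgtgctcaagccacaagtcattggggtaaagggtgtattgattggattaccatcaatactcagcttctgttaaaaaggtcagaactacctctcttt

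The lower genes included several that mature beta cells need to sense glucose and package insulin. Slc2a2 (GLUT2, mm9 chr3:28596825-28627282), the main glucose transporter of mouse beta cells, was at 99.95 FPKM in the Rip-cre Foxo het library and 144, 130 and 104 in the Rip-cre Foxo KO libraries. In Pdx-cre cells it was at 18.4 in the Foxo het library and 24.6 and 8.61 in the Foxo KO libraries. Each Rip-cre value was above each Pdx-cre value, and the log2 fold change was -2.80 ± 0.32 SE (6.95-fold lower, adjusted p = 0.01, limma), or -2.30 without the 2 Xist-high libraries. Both glucose transporters therefore lay in opposite order in the lines, with Slc2a2 above Slc2a1 in all 4 Rip-cre libraries and below it in all 3 Pdx-cre libraries.

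Pdx1 (mm9 chr5:148081707-148086725), a transcription factor that keeps beta cells mature and whose promoter drives the Pdx-cre label, was at 96.2, 65.5, 62.7 and 55.0 FPKM in Rip-cre libraries and at 30.4, 31.4 and 27.2 in Pdx-cre libraries (2.28-fold lower, log2 -1.19 ± 0.18 SE, adjusted p = 0.0277, limma). Slc30a8, the zinc transporter of insulin granules, was at 272, 213, 225 and 159 FPKM against 78.9, 95.8 and 37.4 (3.24-fold lower, adjusted p = 0.0459, limma). In neither gene do the lines overlap.

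Read as lists, 1 of 16 beta cell transcription factors tested was lower (Pdx1) and none was higher, with a median log2 fold change of -0.33 and 14 of 16 estimates below 0. Nkx6-1, which represses other endocrine fates, was at 59.6 to 97.1 FPKM in Rip-cre and 33.0 to 41.1 in Pdx-cre libraries without passing the test (log2 -0.98 ± 0.20 SE, adjusted p = 0.0724, limma), and Mafa was low in both lines, at 2.57 to 4.59 and 0.434 to 2.51 FPKM (adjusted p = 0.17, limma). Of 17 beta cell hormone and function genes tested, 2 were lower (Slc2a2 and Slc30a8), with a median of -0.49 and 16 of 17 estimates below 0. Ucn3, a peptide of mature beta cells, was at 519 to 795 FPKM in Rip-cre and 69.9 to 302 in Pdx-cre libraries (log2 -2.03 ± 0.42 SE, adjusted p = 0.0767, limma), and the estimate for the channel gene Trpm5 was -1.31 on the log2 scale (adjusted p = 0.0841, limma). For Mlxipl (ChREBP), a glucose-responsive transcription factor, it was -1.72 (adjusted p = 0.0778, limma).

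The hormones of beta cells did not pass the test. Ins2 was at 318000 to 356200 FPKM in Rip-cre and 247000 to 304700 in Pdx-cre libraries, and the groups do not overlap. Its log2 fold change was -0.27 ± 0.76 SE (95% interval -1.99 to 1.46, adjusted p = 0.901, limma). The test draws each SE towards that of genes of similar level, so this SE is wider than the spread of the Ins2 values themselves. Iapp, which is secreted with insulin, was at 33200 to 97370 and 69600 to 90300 FPKM (adjusted p = 0.683, limma). Of 21 pan-endocrine and granule genes tested 1 was higher, Pam, an enzyme that amidates peptide hormones (2.15-fold, adjusted p = 0.0473, limma), and the median was -0.09.

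**Figure D3:**
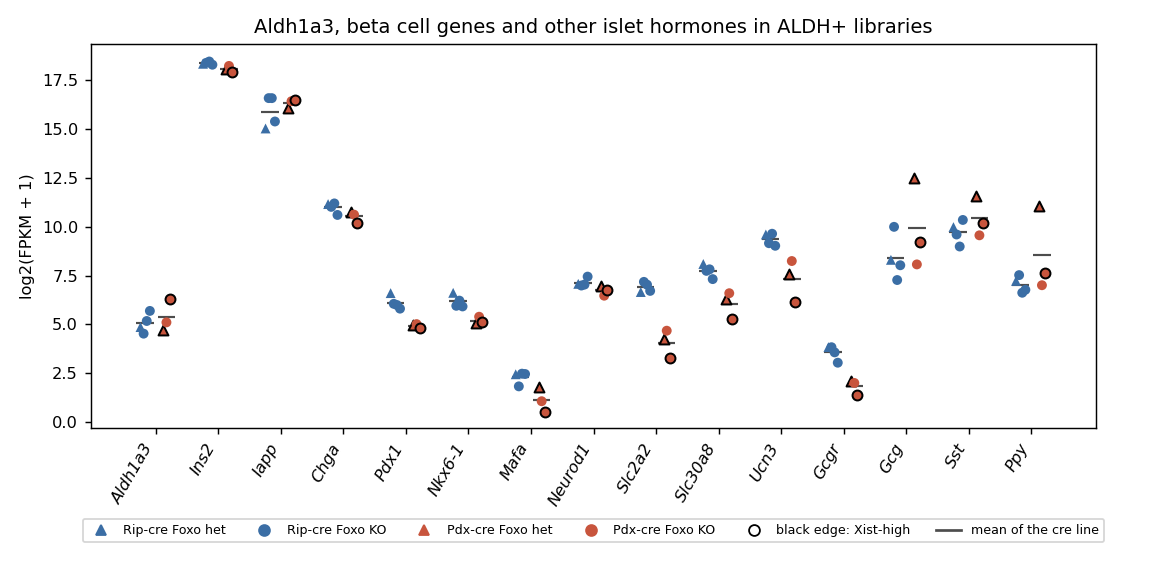
Level of Aldh1a3, beta cell genes and other islet hormones in each ALDH+ library, as log2(FPKM + 1), with symbols as for the glycolytic genes. Slc2a2, Slc30a8 and Pdx1 lie lower in all 3 Pdx-cre libraries than in any Rip-cre library, Aldh1a3 and Iapp overlap, and Gcg and Ppy are highest in Pdx-cre Foxo het replicate 2.

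Other lower genes belonged to nutrient handling and signalling. Cox6a2, the heart and muscle form of a cytochrome c oxidase subunit, was at 42.0 to 147 FPKM in Rip-cre and 7.79 to 18.3 in Pdx-cre libraries (6.34-fold lower, adjusted p = 0.0336, limma), the 1 called gene of 14 tested in complex IV. Gcgr, the glucagon receptor, was at 7.25 to 13.3 against 1.65 to 3.26 FPKM (3.37-fold lower), and Vsnl1, a neuronal calcium sensor, at 10.02 to 14.7 against 0.328 to 1.68 (6.46-fold lower). Hadh, a fatty acid oxidation enzyme whose loss raises insulin secretion, was 2.27-fold lower, Lpl (lipoprotein lipase) 2.64-fold, Ppp1r1a (a phosphatase inhibitor) 3.32-fold and the amino acid transporter Slc7a8 2.10-fold. Grtp1 had the smallest p among lower genes, with 22.4 to 35.6 FPKM in Rip-cre and 7.36 to 9.25 in Pdx-cre libraries (log2 -1.69 ± 0.19 SE, adjusted p = 0.01, limma). Adh1, an alcohol dehydrogenase that can oxidise retinol, was the 1 called gene of 10 tested in the retinoid pathway, at 94.9 to 133 against 30.01 to 67.5 FPKM (2.78-fold lower, adjusted p = 0.0458, limma).

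Among the other higher genes, Fxyd5, a modulator of the sodium pump, was at 1.58 to 5.97 FPKM in Rip-cre and 26.9 to 54.2 in Pdx-cre libraries (10.8-fold, adjusted p = 0.01, limma). The noncoding transcript C530028O21Rik (mm9 chr6:124946738-124953117) was listed at 0 FPKM in 3 Rip-cre libraries and 0.0481 in the fourth, and at 7.53, 50.4 and 38.6 in Pdx-cre libraries. Snhg12, a host gene of small nucleolar RNAs, was at 5.80 to 8.10 against 32.8 to 37.5 FPKM (4.63-fold). Scarna3b had the smallest p of all, and it rests on 1 fragment in each Pdx-cre library and 0 in each Rip-cre library, the single called gene with under 10 fragments per library on average. Penk, the enkephalin precursor, was at 0, 0.323, 1.77 and 0.910 FPKM in Rip-cre and 8.38, 6.49 and 14.5 in Pdx-cre libraries (adjusted p = 0.0271, limma). It was the 1 called gene of 9 tested gut and neuropeptide hormones. It was also the 1 called of 14 genes that the study had itself named from islets of its Foxo knockout models. The study lists Penk for its Pdx-cre knockout over control and not for Rip-cre, which is another comparison than that between lines. Whether these libraries entered that choice is not given in the sources used here. Cdkn1a (p21, an inhibitor of the cell cycle) was 2.29-fold higher, the 1 called gene of 11 tested cell cycle genes, and Cldn7, a tight junction gene of epithelia, was 2.34-fold higher, the 1 called gene of 11 tested duct markers. The median log2 fold change of the duct list was 0.57. Duct markers summed to 703.5 FPKM in Pdx-cre Foxo het replicate 2 and 1240 in Pdx-cre Foxo KO replicate 5, the Xist-high libraries. Their sum was 637.3 in Pdx-cre Foxo KO replicate 4 and 463 to 649.8 in Rip-cre libraries.

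**Figure D4:**
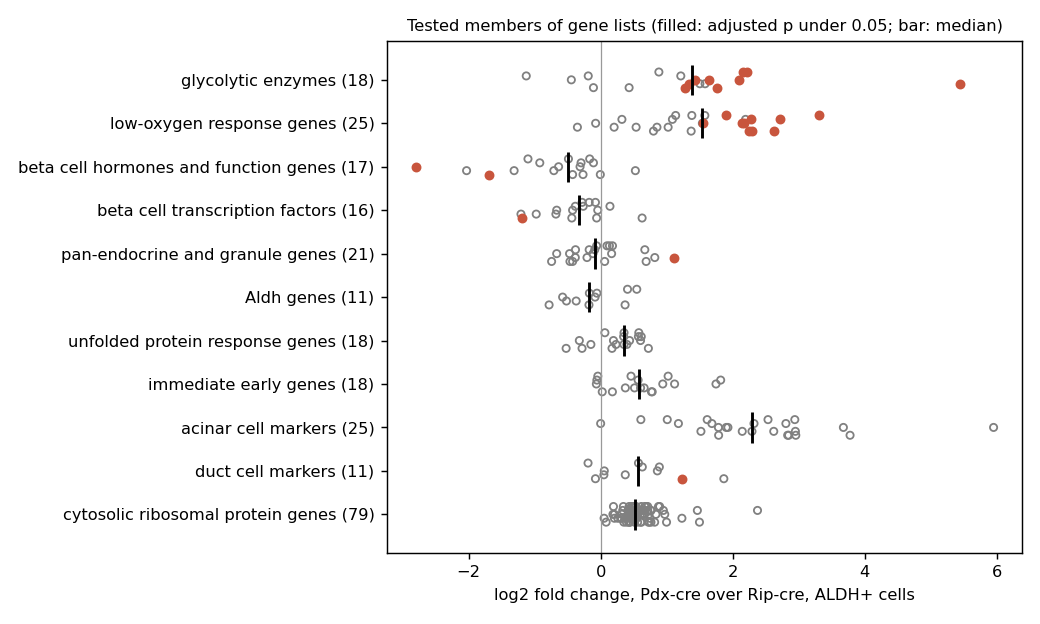
Log2 fold change of each tested member of 11 gene lists in ALDH+ cells, Pdx-cre over Rip-cre, with filled red points for adjusted p under 0.05 and a bar at the list's median. Number of tested members is given in brackets. Glycolytic enzymes and low-oxygen response genes have medians of 1.38 and 1.54, and beta cell function genes and transcription factors lie at -0.49 and -0.33.

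RNA of the other islet hormones was present in both lines, with its highest levels in 1 Pdx-cre library. Gcg (glucagon) was at 315, 1016, 154 and 260 FPKM in Rip-cre and at 5822, 268 and 598 in Pdx-cre libraries, where the first value is Foxo het replicate 2. Ppy (pancreatic polypeptide) was at 97.4 to 183 FPKM in Rip-cre libraries, 2132 in the same Pdx-cre Foxo het library and 128 and 199 in the Pdx-cre Foxo KO libraries. Neither passed the test (Gcg adjusted p = 0.458, Ppy adjusted p = 0.302, limma), and Sst (somatostatin) and Pyy did not either (0.46 and 0.782, limma). In bulk RNA, more cells of another type and more hormone RNA per cell cannot be told apart. Endothelial markers summed to at most 5.47 FPKM and stromal markers to at most 1.31 in any ALDH+ library. Macrophage and lymphocyte markers summed to 25.3 to 44.5 FPKM in Rip-cre and 49.4 to 86.7 in Pdx-cre libraries, with 0 of 5 tested genes called, and among them H2-Ab1, a class II antigen presentation gene, was at 0 to 0.198 FPKM against 2.06 to 6.23 (adjusted p = 0.0534, limma). The part of these cell types in the differences between lines was not tested.

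The same comparison in ALDH- cells, which uses 3 Pdx-cre and 5 Rip-cre libraries and shares none with the ALDH+ comparison, called 134 of 11115 genes (1.21%). Of the 75 genes called in ALDH+ cells, 74 were tested in ALDH- cells, 72 had the same sign there and 36 were called there with that sign, which is 48% of the ALDH+ calls and 26.9% of the ALDH- calls. None was called with the opposite sign. Ldha was at 0.0651 to 2.11 FPKM in Rip-cre ALDH- libraries and at 89.2, 38.1 and 121 in Pdx-cre ALDH- libraries. Slc2a2 was at 108 to 227 FPKM in Rip-cre ALDH- libraries and at 20.4, 22.5 and 9.21 in Pdx-cre ALDH- libraries. For the glycolytic enzymes the median in ALDH- cells was 1.36, beside 1.38 in ALDH+ cells. The Pdx1 estimate in ALDH- cells was -0.79 on the log2 scale (adjusted p = 0.209, limma), with a difference between the sorts that was not called (-0.40, adjusted p = 0.994, limma). The ALDH+ and ALDH- libraries may come from the same animals, so the second comparison is not fully independent. It also repeats the split in sex-linked and acinar RNA. Xist was at 69.1 FPKM in Pdx-cre Foxo het ALDH- replicate 3 and 54.05 in Pdx-cre Foxo KO ALDH- replicate 5. In the other ALDH- libraries it was at most 0.147. Ctrb1 was at 8.14 and 331 FPKM in these Pdx-cre libraries and at most 0.426 in the other ALDH- libraries.

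**Figure D5:**
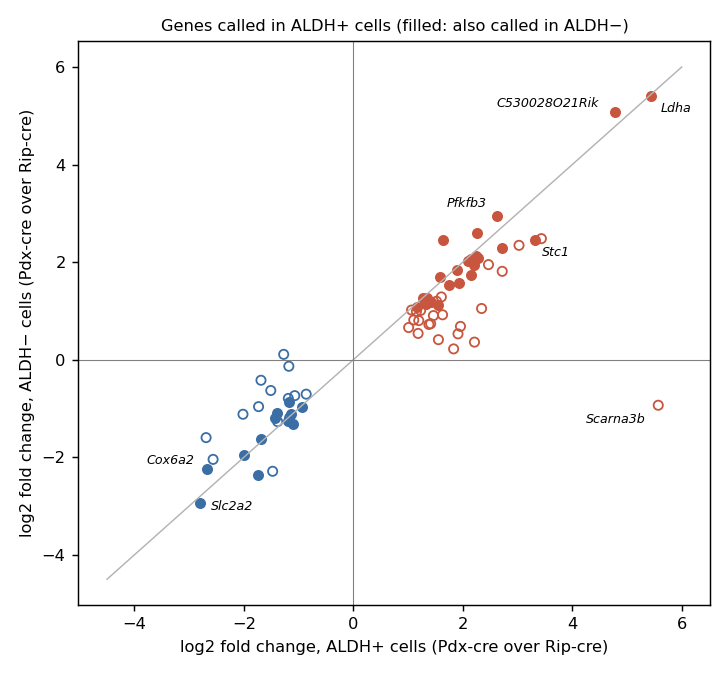
Log2 fold change, Pdx-cre over Rip-cre, of the genes called in ALDH+ cells (x axis) and of the same genes in ALDH- cells (y axis), with a line of equal values. Red genes are higher and blue genes lower in Pdx-cre ALDH+ cells, and filled points are also called in ALDH- cells (36 of 74). Scarna3b, which rests on 1 fragment per Pdx-cre library, lies far from the line.

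Whether a cre difference was particular to ALDH+ cells was tested as the interaction of cre line and sort over all 15 libraries. None of 11253 genes passed (0%, limma), and 511 had an unadjusted p under 0.05. Sst was among the 5 genes with the smallest p. Sst was at 412 to 1036 FPKM in Rip-cre ALDH- libraries and at 13630, 9792 and 8245 in Pdx-cre ALDH- libraries, whereas in ALDH+ cells it was at 506 to 1297 and 752 to 2981. Its interaction was -3.28 on the log2 scale (adjusted p = 0.145, limma). Gcg was at 667 to 888 FPKM in Rip-cre ALDH- and 9533 to 35840 in Pdx-cre ALDH- libraries, with an interaction of -3.28 (adjusted p = 0.993, limma). Gmnn, Alg14, Gm1673 and Scarna3b were the other genes among the 5 with the smallest interaction p, each with an adjusted p of 0.145.

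Ldha was the 1 called gene of 3 tested disallowed genes, and Ldha and Pfkl were the 2 called of 15 tested glucose-responsive genes, whose median was -0.08. Cytosolic ribosomal protein genes had a median log2 fold change of 0.51, with all 79 tested estimates above 0, and their summed level was 9283 and 9657 FPKM in Rip-cre Foxo het replicate 1 and Rip-cre Foxo KO replicate 3, 16140 and 17220 in the other Rip-cre libraries and 15930 to 18210 in Pdx-cre libraries. The groups overlap, and none of these genes was called. Immediate early genes had a median of 0.58 (0 of 18 called), heat shock genes 0.54 (0 of 11), complex I genes 0.49 (0 of 37), unfolded protein response genes 0.35 (0 of 18) and interferon and MHC genes 0.40 (0 of 16). Genes of the prolactin and growth hormone response had a median of -0.53 (0 of 9 called).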

How the data were processed

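Poly-A RNA was selected and libraries were made with the Illumina TruSeq kit. Per the submitters' processing notes, reads were handled with bcl2fastq 1.8.4 and TopHat2 2.0.4 on mm9. The authors deposited a gene table per library in the layout of Cufflinks, with FPKM, its confidence bounds and a status. The version of Cufflinks and whether strand was used are not given in the sources used here. Fragments per gene were worked out from the width of the bounds, and 66.2% of those under 500 were whole within 0.02, so they are approximate and no count test was run.

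Of 23699 entries, 248 symbols listed more than once (712 lines) were left out, as were 35 further lines that failed or were too deep in an ALDH+ library, Ins1 among them, which left 22952 genes. FPKM were rescaled by a trimmed mean of M-values (factors 0.962 to 1.02), filtered at a mean of 1 and tested as log2(value + 1) with limma 3.58.1 in R 4.3.3 (variance trend, Foxo genotype as covariate, 4 residual degrees of freedom, two-sided, Benjamini-Hochberg). A fold change is on this log2(value + 1) scale and understates that of low genes. FPKM in the text are as deposited. Coordinates are mm9, 1-based. The fit was tested on simulated data.

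Named genes were up to 15 with the smallest p in each direction, 15 fixed genes, up to 4 per list and 5 of the interaction. Other genes, and the glycolytic and low-oxygen lists, were chosen after their values were seen. The comparison and lists were chosen with earlier results of these data known. Further lists with 0 called genes were strain-variable genes, Foxo targets, progenitor genes, nuclear noncoding RNAs, sex-linked genes and low-oxygen regulators. Complexes III and V, mitochondrial ribosomal proteins, and Schwann, alpha, delta and PP markers also had 0. Only 2 Schwann and neuronal markers, and 4 markers each of alpha, delta and PP cells, were tested. No red blood cell gene was tested.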

Additional observations from a re-analysis of the deposited data

Results flagged for a closer look

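In the 4 Rip-cre ALDH+ libraries, 159 named genes were searched for a library whose distance from the nearest other as a share of the group's range exceeded Dixon's 95% critical value, which chance gives in about 1 of 20 groups, and 7 genes met it. Rip-cre Foxo KO replicate 2 was high for C530028O21Rik and Stc1 (ratio 1 for both), which were listed at 0 in the other Rip-cre libraries and stayed under 0.2 FPKM in it. H2-Ab1 was above 0 in Rip-cre Foxo KO replicate 1 alone (ratio 1). Hhex was high (0.832) and Mafa low (0.874) in Rip-cre Foxo KO replicate 1, and Gata6 was high (0.928) and Cdkn2c low (0.892) in Rip-cre Foxo het replicate 1, the 1 control among these libraries.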

How the results depend on the processing

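The 75 called genes gave 1564 estimates over the alternatives run, of which none reversed and 827 stayed past the threshold. As the genes were picked from the same libraries, a reversal was unlikely beforehand. The fits without either Foxo het library and the fit with Foxo KO libraries only take the cre difference from the same libraries. Their estimates are therefore not separate. The number of calls was 48 with a pseudocount of 0.1, 1 with no expression filter, 174 with all 15 libraries in the fit and 11 with Foxo KO libraries only. Leaving out 1 library gave 4 to 167 calls, with Ldha and Scarna3b past the threshold in each of these fits. Alternatives chosen after seeing the data gave 3 calls with the Xist level as a covariate (1 of them among the 75), 3 without the 2 Xist-high libraries (none of the 75) and 91 with at least 10 fragments per library on average. For the interaction the count was 0, with 3 when no expression filter was used and 0 to 2 when 1 library was left out. With the replicate block, which joins ALDH+ and ALDH- libraries of the same genotype, cre line and number and so leaves the Pdx-cre Foxo het libraries (replicates 2 and 3) unjoined, it was also 0 (614 genes at an unadjusted p under 0.05, block correlation 0.092). Within ALDH+ cells the lines share no replicate number in the same genotype, so the cre difference was not paired. Estimates that did not pass the test changed sign as follows. Leaving out 1 library gave -0.059 to 0.651 for Aldh1a3 and -0.157 to 0.674 for Foxo3 (lowest without Pdx-cre Foxo KO replicate 5 for both), and -0.732 to 1.03 for Pyy (-0.729 without Rip-cre Foxo het replicate 1). With Foxo KO libraries only, Pyy was -0.732. With the Xist covariate, Aldh1a3 was -0.15, Foxo3 -0.588, Pyy -0.514, Gcg -0.009 and Ctrb1 -0.123. Without the 2 Xist-high libraries, Aldh1a3 was -0.029, Foxo3 -0.554, Pyy -0.916, Gcg -0.362 and Sst -0.088. With the covariate the median of gut and neuropeptide hormones was -0.22. The median of the acinar list fell from 2.29 to 0.09 with the covariate. The causes were not tested. The 3 and 4 libraries and 4 residual degrees of freedom limit the precision.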
